A study of Mus musculus with 62 samples.

Results

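The RNA levels of the heat shock factors Hsf1, Hsf2 and Hsf4 and of their binding protein Hsbp1 were followed through 31 long-RNA libraries of a mouse study of amyloid pathology. The genes were taken from the deposited gene tables by their symbols, which gave 4 of 53975 gene identifiers. Hsf1 (ENSMUSG00000022556) lies on chromosome 15 at 76477422 to 76501913, Hsf2 (ENSMUSG00000019878) on chromosome 10 at 57486385 to 57513135, Hsf4 (ENSMUSG00000033249) on chromosome 8 at 105269801 to 105275845 and Hsbp1 (ENSMUSG00000031839) on chromosome 8 at 119344488 to 119348922. These are whole-gene spans on GRCm38, all on the plus strand, and no other gene in the files overlapped them.

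The study compared hippocampi of APP NL-G-F mice, a knock-in line that makes human amyloid beta from a mutated App gene, with hippocampi of C57BL/6J wild-type mice (WT) at 3, 6 and 12 months of age. There were 3 libraries in each of these 6 groups except WT at 3 months, which had 2, and each library came from the pooled left and right hippocampi of 1 mouse. It also treated HT-22 cells, a mouse hippocampal cell line at passage 4, with a locked nucleic acid (LNA, a modified antisense oligonucleotide) against Hsf1 or with a scramble LNA, and then with 30 uM of amyloid beta 1-42 peptide or of the reverse 42-1 peptide, so that every HT-22 library had received an LNA and a peptide. The labels give 150 nM for the anti-Hsf1 LNA and 50 uM for the scramble, both for 24 h. There were 4 libraries with scramble and 3 with anti-Hsf1 LNA under each peptide, described as biological replicates. Where in Hsf1 the LNA binds is not stated in those labels, so the part of the transcript it should affect is not known, and both the cells and the mice were read as bulk RNA.

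Heat shock factors are transcription factors that bind inverted repeats of the short element nGAAn, the heat shock element, in the promoters of chaperone genes. Hsf1 is the main driver of the response to misfolded protein: it is held inactive by chaperones, forms trimers on stress and is switched off again as chaperones accumulate. Hsf2 can pair with Hsf1 and is best known from development, Hsf4 is best known from the lens of the eye, and Hsbp1 is a small coiled-coil protein that binds the trimer of Hsf1. Hsf1 is controlled to a large extent on the protein, by phosphorylation, acetylation and binding partners, which RNA levels do not show.

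Promoter windows are shown as examples of where the element that these factors bind is and is not found. Each runs from 250 bases before to 50 bases after the annotated start (RefSeq, GRCm38.p6, 5′ to 3′ on the gene's strand). Capitals mark matches to GAANNTTC or TTCNNGAA, the 2 forms of a pair of facing elements. Both are their own reverse complement, so each match is read on both strands, and overlapping matches run together. Hsf2 and Hsbp1, the members found in the promoter table, are chr10:57486135-57486434 and chr8:119344288-119344587 on the plus strand. Hspe1, a mitochondrial co-chaperonin, is chr1:55087898-55088197 on the plus strand, and Hspa1a, a stress-induced Hsp70, is chr17:34972107-34972406 on the minus strand.
Hsf2: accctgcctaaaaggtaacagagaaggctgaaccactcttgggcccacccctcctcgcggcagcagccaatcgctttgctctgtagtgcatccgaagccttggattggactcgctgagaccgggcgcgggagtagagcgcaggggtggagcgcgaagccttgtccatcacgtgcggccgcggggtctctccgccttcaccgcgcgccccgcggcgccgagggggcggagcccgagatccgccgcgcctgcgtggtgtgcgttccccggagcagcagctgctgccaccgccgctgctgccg
Hsbp1: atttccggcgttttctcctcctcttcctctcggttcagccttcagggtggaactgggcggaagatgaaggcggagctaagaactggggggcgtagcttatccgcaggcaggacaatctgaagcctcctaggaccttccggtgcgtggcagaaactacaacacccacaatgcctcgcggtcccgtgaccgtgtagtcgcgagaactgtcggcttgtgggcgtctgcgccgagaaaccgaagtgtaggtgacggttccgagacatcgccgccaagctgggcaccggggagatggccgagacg
Hspe1: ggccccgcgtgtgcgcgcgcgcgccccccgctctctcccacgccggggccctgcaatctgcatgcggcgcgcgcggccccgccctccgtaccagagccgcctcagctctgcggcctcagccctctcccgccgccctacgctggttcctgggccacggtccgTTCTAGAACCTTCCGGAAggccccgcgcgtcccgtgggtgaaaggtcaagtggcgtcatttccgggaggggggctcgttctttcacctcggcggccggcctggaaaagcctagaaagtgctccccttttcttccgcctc
Hspa1a: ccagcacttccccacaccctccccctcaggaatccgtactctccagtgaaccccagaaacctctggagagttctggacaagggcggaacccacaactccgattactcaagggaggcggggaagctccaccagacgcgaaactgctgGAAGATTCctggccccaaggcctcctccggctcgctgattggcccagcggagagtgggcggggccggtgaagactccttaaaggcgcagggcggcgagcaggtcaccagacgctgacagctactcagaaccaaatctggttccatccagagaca

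The Hsf2 and Hsbp1 windows held no match to either pair form, which says only that these letters are not in these 300 bases. In the Hspe1 window 3 pairs overlapped, the first base lying at -89 from the start, and together they make triples, that is GAANNTTC followed by NNGAA or TTCNNGAA followed by NNTTC. The Hspa1a window held 1 pair, with its first base at -104. Over all 32851 promoter windows there, 15.1% held a pair and 0.603% a triple. Of the 22 windows that matched 16 of the 20 heat shock target genes used below, 12 held a pair and 5 a triple. These windows are not all separate. Those of Hspd1 and Hspe1 overlap on opposite strands and hold the same triples, and those of Hsph1 overlap each other. Neither Dnajb1 window held a pair. The list was chosen as known heat shock targets, so a high share describes that choice of genes and is not a test.

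Several libraries stood apart. TPM (the share of transcripts, scaled to a fixed total) is a share of all RNA in a library, and protein-coding genes took 26.6% to 51.0% of it in the mice and 30.1% to 61.8% in HT-22 cells. One non-coding RNA gene, Gm23935, alone took 2.45% to 24.3% and 5.37% to 44.3%. All values are therefore given both as deposited and as scaled TPM, that is, divided by median of ratios size factors (0.686 to 1.46 in the mice, 0.638 to 1.23 in HT-22 cells), which set the typical gene equal between libraries. Scramble replicates 3 and 4 with amyloid beta 1-42 and scramble replicate 4 with the reverse peptide deviated together from their group means, with r of 0.56 and 0.57 over genes between the reverse-peptide library and each of the others. HT-22 results that move without these 3 are therefore also given that way. APP replicate 1 at 3 months had a hippocampus marker sum of 93.9 scaled TPM against 158 to 289 in the other mice. All APP libraries of 3 months (93.9 to 205) were below every library of the other mouse groups (210 to 289). Xist was high in all APP and the 3-month WT libraries and Y-linked transcripts were present in the WT libraries of 6 and 12 months. The labels give no sex, so genotype at 6 and 12 months, and age in WT mice, cannot be told apart from that difference. The same holds for the change of the genotype difference from 3 months to 6 or 12 months.

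The cells carried little of the neuron's RNA. The neuron marker sum (8 genes, Rbfox3 and Snap25 among them) was 1665 to 2885 scaled TPM in the mice and 5.24 to 8.82 in HT-22 cells, in which Rbfox3, Grin1, Snap25 and Syt1 were listed at 0 in all libraries. Of the hippocampus markers Prox1, C1ql2, Neurod6 and Neurod2 were listed at 0 as well. Zbtb20, at 15.3 to 54.9 scaled TPM, and Wfs1, at 9.93 to 13.96, were detected in all HT-22 libraries. In the mice these genes were at 30.04 to 99.4 and 18.2 to 46.7 scaled TPM. The hippocampus marker sum was 29.2 to 66.8 scaled TPM in HT-22 cells and 93.9 to 289 in the mice.

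All 4 genes were detected in each of the 31 libraries, at levels that differed between genes. In HT-22 cells mean deposited TPM was 77.9 for Hsbp1, 55.2 for Hsf1, 35.4 for Hsf2 and 10.4 for Hsf4, and this order held in 14 of 14 libraries. In the hippocampus the means were 104 for Hsbp1, 16.5 for Hsf2, 12.9 for Hsf1 and 3.64 for Hsf4, an order found in 15 of 17 libraries. The other 2 had Hsf1 above Hsf2. Hsf1 and Hsf2 thus stood in opposite order in most libraries of the cell line and the tissue, which were not compared by a test because they are separate experiments. The relatives were hardly seen: Hsfy2 was listed at 0 in all 31 libraries, Hsf3 in all HT-22 libraries and 13 of the mice, Hsf2bp in all HT-22 libraries and 15 of the mice, Hsf5 reached at most 0.704 TPM and Hsbp1l1, a paralog of Hsbp1, at most 1.80 TPM.

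The place of Hsf4 in this order differed between units. The files also hold coverage, the mean number of reads over each base of the gene. In genes with 1 annotated transcript the median ratio of TPM to coverage was 1.96 in HT-22 cells and 1.58 in the mice, and Hsf4, with 7 annotated transcripts, was close to that with 2.06 and 1.59. Hsf1, with 16, had ratios of 8.70 and 7.00, Hsf2, with 6, had 8.24 and 6.61, and Hsbp1, with 4, had 3.10 and 2.45, so the ratio did not follow the number of transcripts. By coverage Hsf4 stood above Hsf1 in 14 of 17 mouse libraries, and the most common order in HT-22 cells, in 8 of 14, was Hsbp1, Hsf1, Hsf4, Hsf2. Hsbp1 stayed first in all 31 libraries by coverage. Hsf1 was above Hsf2 in 13 of 14 HT-22 libraries and Hsf2 above Hsf1 in 16 of 17 mouse libraries, so the rank of Hsf4 alone is tied to the unit.

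**Figure D1:**
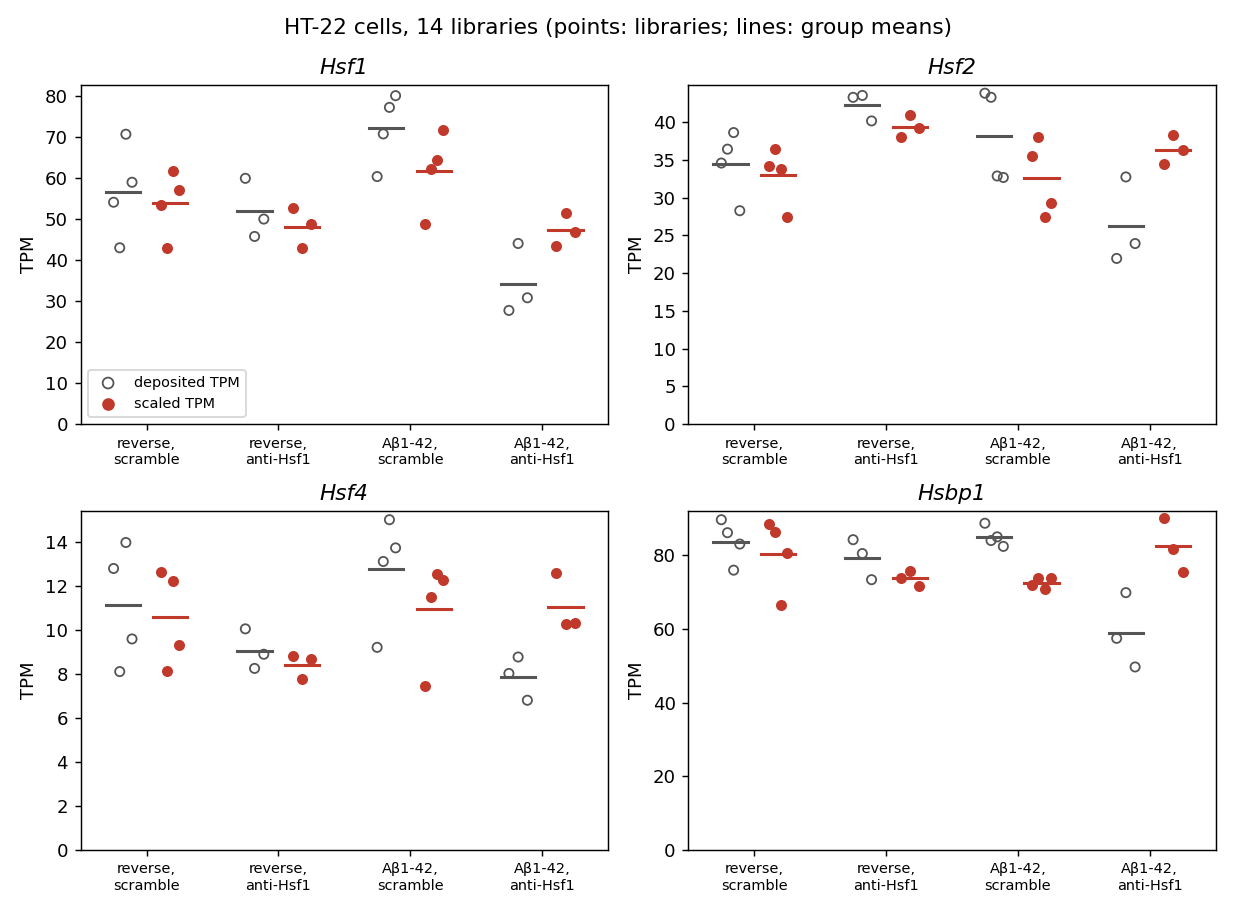
Level of Hsf1, Hsf2, Hsf4 and Hsbp1 (y axes, TPM) in each HT-22 library of the 4 groups in deposited and in scaled form, with a point for each library and the group mean marked. The deposited Hsf1 values with amyloid beta 1-42 and anti-Hsf1 LNA (27.7 to 44.0) lie below those with scramble (60.3 to 80.0), and the gap narrows after scaling (43.4 to 51.5 against 48.8 to 71.6).

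The targeted gene came first. With the reverse peptide Hsf1 was at 54.0, 42.9, 70.6 and 58.9 TPM in the scramble libraries and at 59.9, 45.7 and 49.9 TPM in the libraries labelled anti-Hsf1. These ranges overlapped. With amyloid beta 1-42 it was at 60.3, 70.7, 77.1 and 80.0 TPM with scramble and at 27.7, 44.0 and 30.8 TPM in the libraries labelled anti-Hsf1. Here every anti-Hsf1 library was below every scramble library. How many of all genes separate in this way was not computed, here or for any later comparison. Such separations are given as a description. Under the reverse peptide the Hsf1 level thus gives no check of the LNA label, and the peptide groups are described apart.

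With amyloid beta 1-42 Hsf1 was lower in the anti-Hsf1 libraries by 1.07 ± 0.19 on the log2(TPM + 1) scale (SE, limma, 4 against 3 libraries, adjusted p = 0.0011). The other members fell with it, Hsf2 by 0.53 (limma adjusted p = 0.017), Hsf4 by 0.62 (0.024) and Hsbp1 by 0.53 (0.0042). So 4 of 4 members were called lower, where 50.5% of the 17291 genes tested were called lower and the median change of all genes was -0.62. Coding genes took 34.8% ± 6.4 of TPM in these anti-Hsf1 libraries and 56.5% ± 4.4 with scramble (SD), and Gm23935 15.5% to 44.3% against 5.37% to 13.01%. The scaled values set this shift to about 0 for the typical gene.

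After scaling Hsf1 was at 48.8, 62.0, 64.4 and 71.6 scaled TPM with scramble and at 43.4, 51.5 and 46.7 with anti-Hsf1 LNA. Its difference was -0.37 (95% interval -0.68 to -0.06), with a limma p of 0.025 that did not pass adjustment (adjusted p = 0.53). The groups overlapped, because the lowest scramble library, at 48.8, was below the highest anti-Hsf1 library, at 51.5. The other members no longer differed in the same direction: Hsf2 was at 0.17 (-0.11 to 0.44), Hsf4 at 0.033 (-0.39 to 0.45) and Hsbp1 at 0.18 (-0.05 to 0.41). Hsbp1 was at 71.9, 73.8, 71.0 and 73.8 scaled TPM with scramble and at 90.1, 81.8 and 75.5 with anti-Hsf1 LNA, groups that did not overlap, but in the direction opposite to the deposited one. Among all genes 4 were called after scaling, all higher (0.0231%), and no member was among them. Without the 3 scramble libraries that deviated together the deposited change of Hsf1 was -0.94 (limma adjusted p = 0.0082) and the scaled one -0.22 (-0.58 to 0.14). Deposited Hsf4 was then at -0.44 and no longer called (limma adjusted p = 0.14).

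Some of these calls rested on single libraries. Leaving out any 1 of the 7 libraries kept the deposited Hsf1 change between -1.27 and -0.94 and the Hsbp1 change between -0.66 and -0.42, called in each case. Hsf2 was no longer called without anti-Hsf1 replicate 1 (-0.42, limma adjusted p = 0.09) or 3 (-0.48, 0.067). Hsf4 was no longer called without scramble replicate 3 or 4 or anti-Hsf1 replicate 1 or 3 (adjusted p = 0.064, 0.052, 0.061 and 0.098).

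With the reverse peptide no gene at all was called between the LNAs by limma (0 of 17291 genes as deposited, 468 at an unadjusted p under 0.05, and 0 scaled, 631 at that p). Hsf1 was 0.15 lower on the scaled log2 scale (95% interval -0.47 to 0.16). Hsf2 differed the other way, at 34.1, 36.5, 33.7 and 27.4 scaled TPM with scramble and 37.96, 40.9 and 39.2 with anti-Hsf1 LNA. The groups did not overlap, which was not set against a share of all genes. The difference was 0.26 (-0.02 to 0.53, limma adjusted p = 0.96). The intervals for Hsf4, -0.28 (-0.70 to 0.14), and Hsbp1, -0.12 (-0.34 to 0.11), also spanned 0.

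Averaged over both peptides, deposited Hsf1 was lower by 0.59 (limma adjusted p = 0.017), Hsf4 by 0.43 (0.044) and Hsbp1 by 0.30 (0.027), while Hsf2 was at -0.12 (0.48). These are 3 of 4 members called lower, beside 27.5% of all genes. The scaled values were -0.26 for Hsf1 (-0.48 to -0.04, unadjusted p = 0.025, limma adjusted p = 0.586) and 0.21 for Hsf2 (0.02 to 0.41, unadjusted p = 0.034, adjusted p = 0.586). No gene was called on the scaled average. The deposited Hsf1 call was lost without anti-Hsf1 replicate 1 with amyloid beta 1-42 (limma adjusted p = 0.057), without anti-Hsf1 replicate 3 with the reverse peptide (0.054), and without the 3 scramble libraries (0.054), when the scaled Hsf2 average was 0.08. Without those 3 Hsf4 (-0.37, limma adjusted p = 0.11) and Hsbp1 (-0.32, 0.063) were not called either. The Hsbp1 call was also lost without anti-Hsf1 replicate 1 or 3 with amyloid beta 1-42 or 2 or 3 with the reverse peptide (limma adjusted p = 0.057 to 0.077). The Hsf4 call stood only without scramble replicate 1 or anti-Hsf1 replicate 2 with amyloid beta 1-42 or scramble replicate 2 with the reverse peptide, and was lost without any of the 11 others (0.051 to 0.11).

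The peptides were compared under each LNA. With scramble LNA amyloid beta 1-42 gave no call in any gene (0 of 17291, 1489 at an unadjusted p under 0.05 as deposited and 856 scaled, limma). With anti-Hsf1 LNA Hsf1 was lower with amyloid beta 1-42 than with the reverse peptide by 0.61 (limma adjusted p = 0.045), Hsf2 by 0.69 (0.02) and Hsbp1 by 0.43 (0.037). This put 3 of 4 members among the 24.2% of genes called lower, with a median of -0.52 over all genes. On the scaled scale the same differences were -0.025 for Hsf1, -0.11 for Hsf2 and 0.16 for Hsbp1. The deposited Hsf1 and Hsbp1 calls stood only when amyloid beta 1-42 replicate 2 was the library left out, and were lost without any of the 5 others (limma adjusted p = 0.054 to 0.18). The Hsf2 call stood without that library or reverse-peptide replicate 3, and was lost without any of the 4 others (0.063 to 0.098).

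Whether the LNA difference depended on the peptide was tested as an interaction. It was called as deposited for Hsf1 (-0.96, limma adjusted p = 0.024) and Hsf2 (-0.83, 0.026), beside 25.3% of genes called lower and a median of -0.68. Both calls were lost without anti-Hsf1 replicate 1 or 3 with amyloid beta 1-42 or replicate 1 with the reverse peptide, and that of Hsf2 also without replicate 2 with the reverse peptide (limma adjusted p = 0.055 to 0.078). Without the 3 scramble libraries that of Hsf1 was lost as well (-0.86, limma adjusted p = 0.056), and that of Hsf2 stood (-0.94, 0.022). Hsbp1 gained a call without anti-Hsf1 replicate 2 with amyloid beta 1-42 (-0.58, limma adjusted p = 0.014). Scaled, the interaction was -0.22 for Hsf1 and -0.091 for Hsf2, and no gene was called. So the larger fall of Hsf1 under amyloid beta 1-42 was not separable on the scaled values from that under the reverse peptide.

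**Figure D2:**
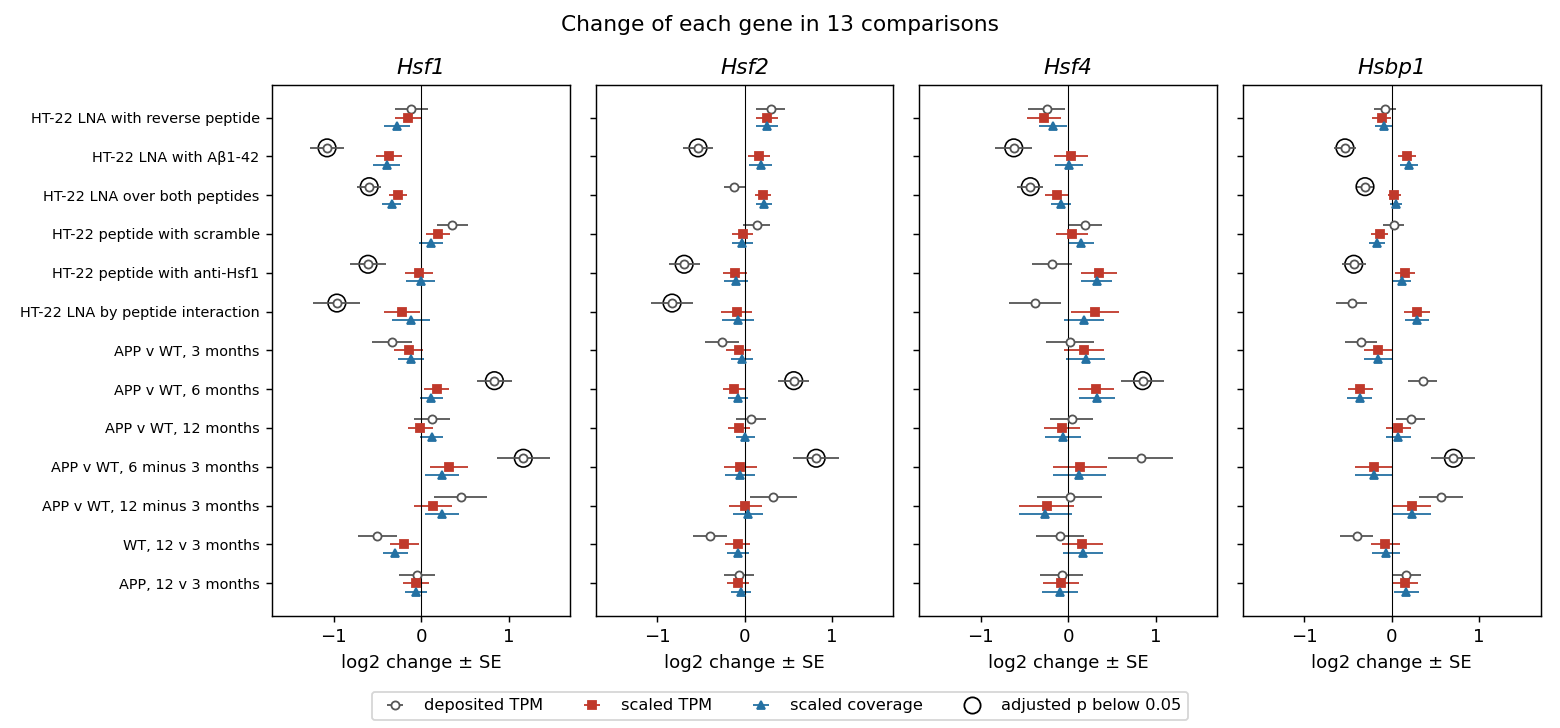
Log2 change of each member (x axis, log2(value + 1) scale, bars ± SE) in each of the 13 comparisons, as deposited, scaled, and from scaled coverage, with circled points at an adjusted p below 0.05. As deposited 18 of 52 values are circled, and scaled 0 of 52, where the values lie between -0.37 and 0.35.

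Ratios of members within a library do not depend on any scaling, and were computed for all 6 pairs in each of 6 comparisons. Hsf1 over Hsf2 was at 1.38 to 2.45 in the amyloid beta 1-42 scramble libraries and at 1.26 to 1.34 with anti-Hsf1 LNA. With the reverse peptide it was at 1.18 to 2.08 with scramble and at 1.05 to 1.38 with anti-Hsf1 LNA. Over both peptides the ratio was 0.48 lower in log2 with anti-Hsf1 LNA (exact permutation within peptide, two-sided, 1225 arrangements, p = 0.015, adjusted over the 6 pairs p = 0.088). From coverage the difference was -0.57 (exact p = 0.013, adjusted p = 0.039). Leaving out 1 library kept the TPM difference between -0.56 and -0.42 with an exact p of at most 0.036. Without the 3 scramble libraries the TPM difference was -0.25 (exact p = 0.065, 200 arrangements). The coverage difference was not recomputed with libraries left out.

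Over both peptides Hsf1 over Hsf4 was 0.13 lower with anti-Hsf1 LNA by TPM (exact p = 0.35, adjusted p = 0.35) and 0.25 lower by coverage (exact p = 0.0090, adjusted p = 0.039). Hsf1 over Hsbp1 was 0.30 lower by TPM (exact p = 0.094, adjusted p = 0.21) and 0.40 lower by coverage (exact p = 0.038, adjusted p = 0.075). So no pair passed adjustment by TPM, and Hsf1:Hsf2 and Hsf1:Hsf4 passed it by coverage. Without the 3 scramble libraries the TPM values were -0.12 for Hsf1:Hsf4 (exact p = 0.55) and -0.20 for Hsf1:Hsbp1 (exact p = 0.29).

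With amyloid beta 1-42, where the smallest p that 4 against 3 allows is 0.029, Hsf1 over Hsf4 was 0.41 lower (exact p = 0.029, adjusted p = 0.11), Hsf1 over Hsf2 0.55 lower (exact p = 0.057, adjusted p = 0.11) and Hsf1 over Hsbp1 0.56 lower (exact p = 0.057, adjusted p = 0.11). With the reverse peptide Hsf1 over Hsf2 was 0.42 lower (exact p = 0.14), while Hsf1 over Hsf4 was 0.15 higher (exact p = 0.31) and Hsf1 over Hsbp1 0.04 lower (exact p = 0.89). Of the pairs without Hsf1, Hsf2 over Hsf4 was 0.57 higher with the reverse peptide (exact p = 0.086, adjusted p = 0.26) and Hsf2 over Hsbp1 0.38 higher (exact p = 0.057, adjusted p = 0.26). Over both peptides the 3 pairs without Hsf1 lay between -0.17 and 0.35 (exact p = 0.10 to 0.32). Between peptides over both LNAs the 6 pairs lay between -0.29 and 0.21 by TPM (adjusted p = 0.46 to 0.62).

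In the mice no pair passed adjustment by TPM or by coverage. At 6 months, where 3 against 3 libraries cannot give an exact p below 0.1, Hsf4 over Hsbp1 was 0.79 higher in APP mice (exact p = 0.1, adjusted p = 0.3) and Hsf2 over Hsf4 0.55 lower (exact p = 0.1, adjusted p = 0.3). Hsf1 over Hsbp1 was 0.55 higher (exact p = 0.2) and Hsf1 over Hsf2 0.32 higher (exact p = 0.2). Over the 3 ages the 6 pairs lay between -0.28 and 0.34 (exact permutation within age, p = 0.16 to 0.59).

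Base composition moved with the ratio of Hsf1 to Hsf2. Hsf1 and Hsf4 transcripts are rich in G and C (57.3% and 61.1%), Hsf2 transcripts are poor in them (38.5%, the 4.16th percentile of genes tested in HT-22 cells), and Hsbp1 is in the middle (50.2%). For each library the slope of all genes' scaled log2 levels on GC was taken, per 10 percentage points of GC. Over the 14 HT-22 libraries scaled Hsf1 had an r of 0.72 with this slope, Hsf4 of 0.76, Hsf2 of -0.80 and Hsbp1 of -0.07. The log2 ratio of Hsf1 to Hsf2 had an r of 0.83 over the 14 libraries, 0.95 over the 8 scramble and 0.61 over the 6 anti-Hsf1 libraries. The 3 scramble libraries that deviated together had the highest slopes (0.126 to 0.188) and the highest ratios (2.08 to 2.45). The r was not recomputed without them. These correlations describe libraries that share genes and scaling. Slopes ranged from -0.103 to 0.188 in the amyloid beta 1-42 scramble group and from 0.028 to 0.049 in its anti-Hsf1 group. With the reverse peptide they ranged from -0.187 to 0.145 and from -0.165 to -0.054. With the GC slope removed in each library the LNA difference in the ratio was -0.32 over both peptides (exact p = 0.0033, adjusted p = 0.02). Scaled Hsf1 with amyloid beta 1-42 was then 0.35 lower (-0.60 to -0.11, limma adjusted p = 0.38). The ratio with the GC slope removed was not recomputed with libraries left out.

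**Figure D3:**
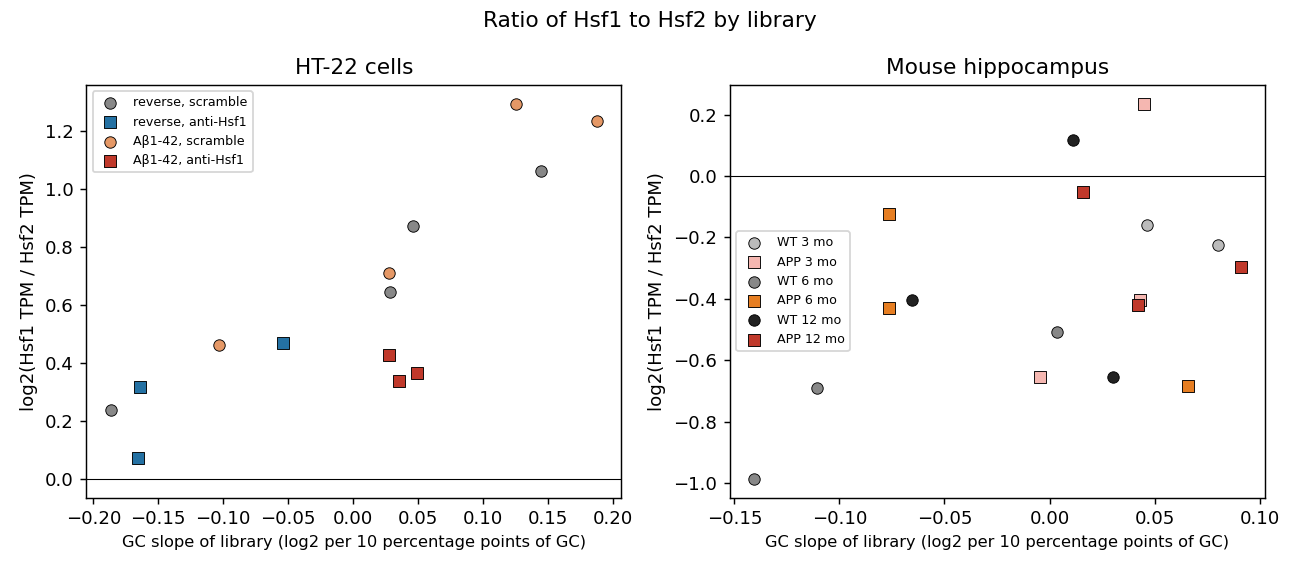
Log2 ratio of Hsf1 to Hsf2 TPM (y axis) against the GC slope of the library (x axis, log2 units per 10 percentage points of GC), with a point for each HT-22 and each mouse library. The HT-22 points rise together (r = 0.83, n = 14), the mouse points less so (r = 0.41, n = 17).

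In the hippocampus the largest deposited differences were at 6 months, where RNA per cell and the number of cells of a type cannot be told apart in bulk tissue. Hsf1 was at 7.81, 7.63 and 10.2 TPM in WT mice and at 13.1, 15.9 and 19.3 in APP mice. Hsf2 was at 11.1, 15.1 and 16.4 in WT and at 21.0, 17.3 and 26.1 in APP. Hsf4 was at 1.74, 1.66 and 2.81 in WT and at 4.16, 4.15 and 5.12 in APP. In each of these 3 genes every APP library was above every WT library. Hsbp1, at 94.7, 90.6 and 87.1 in WT and 125, 90.6 and 139 in APP, overlapped.

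The differences were 0.84 for Hsf1 (limma adjusted p = 0.003), 0.56 for Hsf2 (0.013), 0.85 for Hsf4 (0.0079) and 0.36 for Hsbp1 (0.075). Thus 3 of 4 members were called higher, where 57.6% of 17840 genes were called higher and the median of all genes was 0.60. Coding genes took 42.5% ± 7.6 of TPM in APP and 27.3% ± 1.0 in WT mice at this age. Marker sums moved as well: choroid plexus genes (7 genes) were at 38.7 to 914 scaled TPM in APP and 1148 to 1353 in WT mice, blood genes (5) at 89.5 to 138 and 175 to 228, and astrocyte genes (7) at 1039 to 1312 and 913 to 1024, with none of these genes at 0 in a whole group. Ranges overlapped for neuron genes (8), at 2442 to 2866 and 2294 to 2519, and for microglia, oligodendrocyte and hippocampus genes. Their part in the members' values was not tested. Scaled, 1.43% of genes were called in either direction and no member was. Scaled Hsf1 was at 11.4, 9.71 and 12.1 in WT and 10.7, 13.98 and 13.3 in APP, a difference of 0.18 (-0.14 to 0.49). Scaled Hsf2 differed by -0.12 (-0.39 to 0.15).

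After scaling, the 6-month groups did not overlap for Hsf4 and Hsbp1. The share of all genes whose groups separated was not computed, so this is a description. Hsf4 was at 2.54, 2.12 and 3.35 scaled TPM in WT and at 3.40, 3.66 and 3.52 in APP, a difference of 0.32 (-0.13 to 0.76). Hsbp1 was at 138, 115 and 104 in WT and at 102, 79.9 and 95.5 in APP, so that its difference turned from 0.36 as deposited to -0.36 (-0.67 to -0.05, unadjusted p = 0.028, limma adjusted p = 0.23). Of 52 scaled tests of members this was the one with the lowest adjusted p. Deposited Hsf1 and Hsf4 stayed called without any 1 library (0.70 to 0.97 and 0.76 to 1.01). Hsf2 lost its call without APP replicate 3 (0.42, limma adjusted p = 0.073) or WT replicate 1 (0.40, 0.08), and Hsbp1 gained one without APP replicate 2 (0.53, 0.0099).

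**Figure D4:**
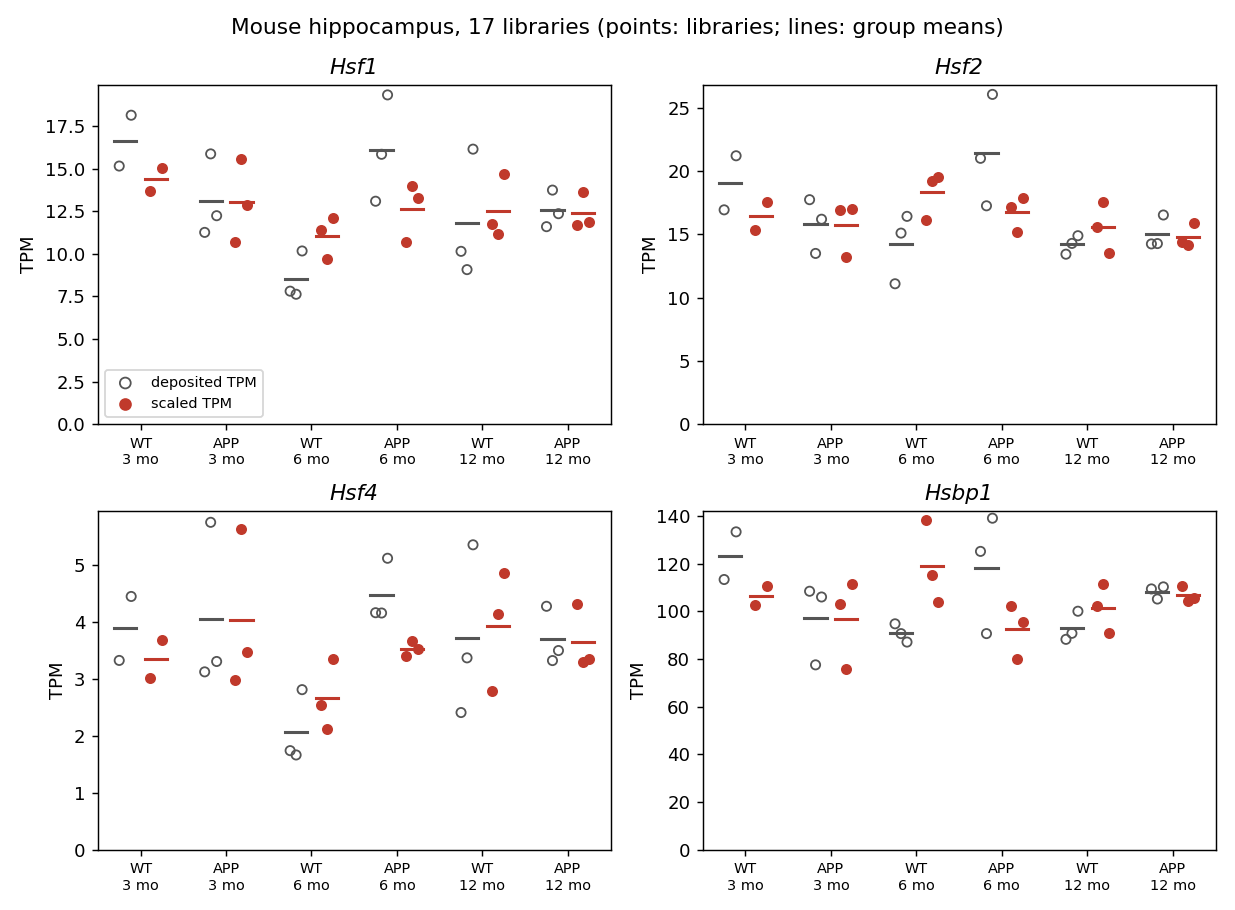
Level of Hsf1, Hsf2, Hsf4 and Hsbp1 (y axes, TPM) in each hippocampus library of the 6 groups in deposited and in scaled form, with a point for each library and the group mean marked. At 6 months the deposited Hsf1 values of APP mice (13.1 to 19.3) lie above those of WT mice (7.63 to 10.2), and the scaled ranges overlap.

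At 3 and 12 months no member was called. At 3 months Hsf1 was at 15.2 and 18.2 TPM in WT and at 11.3, 15.9 and 12.2 in APP, and Hsbp1 was at 113 and 133 in WT and at 108, 77.5 and 106 in APP. The latter did not overlap as deposited, while the scaled values, 103 and 110 against 103, 76.0 and 111, did. At 12 months Hsf1 was at 10.2, 9.08 and 16.2 in WT and at 11.6, 13.8 and 12.4 in APP. Hsf2 was then at 13.4, 14.3 and 14.9 against 14.2, 14.3 and 16.5, and Hsf4 at 2.41, 3.37 and 5.35 against 4.27, 3.32 and 3.50. These 3 genes had overlapping ranges. Hsbp1, at 88.2, 90.8 and 100.008 TPM in WT and 109, 105 and 110.2 in APP, did not overlap, with a difference of 0.22 (-0.13 to 0.57, limma adjusted p = 0.84). Its scaled values, 102, 111.4 and 90.9 against 110.5, 104 and 106, did, at 0.077 (-0.24 to 0.39). The background of called genes was 0.398% at 3 months and 0.639% at 12 months as deposited, and 0.297% and 0.454% scaled.

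The genotype difference at 6 months was set against that at 3 months. As deposited it was larger for Hsf1 by 1.17 (limma adjusted p = 0.0068), for Hsf2 by 0.82 (0.02) and for Hsbp1 by 0.71 (0.031), beside 44.2% of genes called higher and a median of 0.74. After scaling these values were 0.32, -0.051 and -0.20 and none was called (1.53% of genes in either direction). Hsf1 kept its deposited call without any 1 library (1.03 to 1.301), and Hsf2 lost it without APP replicate 3 or WT replicate 1 of 6 months or WT replicate 2 of 3 months (limma adjusted p = 0.051 to 0.11). Hsbp1 lost it without any 1 of 6 of the 11 libraries (0.052 to 0.14): APP replicate 2 and WT replicate 2 of 3 months, and APP replicates 1 and 3 and WT replicates 2 and 3 of 6 months. Hsf4 gained a call without APP replicate 2 of 3 months (1.05, limma adjusted p = 0.029) or WT replicate 3 of 6 months (0.99, 0.042). No member was called between 12 and 3 months in WT or in APP mice or in their difference (background 0.118%, 1.60% and 0.454% as deposited, and 0.0617%, 3.34% and 0.0729% scaled). One call appeared when a library was left out: Hsf1 was 0.73 lower in WT mice at 12 months than at 3 without WT replicate 3 of 12 months (limma adjusted p = 0.045).

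Ordered by scaled group means, neighbours mostly differed by less than the spread. Hsf1 in HT-22 cells ran from 61.7 ± 9.51 scaled TPM (SD, n = 4) with amyloid beta 1-42 and scramble through 53.8 ± 7.96 (n = 4) with reverse peptide and scramble to 48.1 ± 4.81 and 47.2 ± 4.06 (n = 3 each) with anti-Hsf1 LNA and reverse or amyloid beta 1-42 peptide. Each gap was smaller than the larger SD of its neighbours. In the mice Hsf1 ran from 14.4 in WT at 3 months through 13.1 (APP, 3 months), 12.7 (APP, 6 months), 12.5 (WT, 12 months) and 12.4 (APP, 12 months) to 11.1 in WT at 6 months. Only the last gap exceeded the SD, and the ranges there still overlapped.

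Hsf2 put both anti-Hsf1 groups on top in HT-22 cells, at 39.4 ± 1.49 with the reverse peptide and 36.3 ± 1.95 with amyloid beta 1-42 (n = 3 each), above 32.9 and 32.5 scaled TPM in the scramble groups. The gap between the first 2, at 3.03, was larger than their SDs, though their ranges overlapped, and the other gaps were not. In the mice Hsf2 ran from 18.3 in WT to 16.8 in APP at 6 months, 16.5 and 15.7 at 3 months and 15.5 and 14.8 at 12 months, WT first each time, and every gap was within the SD. Hsf4 ran from 11.0 to 8.41 in HT-22 cells and from 4.03 (APP, 3 months) to 2.67 (WT, 6 months) in the mice, where the last gap alone exceeded the SD. Hsbp1 ran from 82.5 to 72.6 and from 119 (WT, 6 months) to 92.5 (APP, 6 months), with every gap between neighbours within the SD.

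Scaling reduced the spread of each gene. The coefficient of variation over HT-22 libraries went from 29.2% to 16.6% for Hsf1, from 20.4% to 12.2% for Hsf2, from 25.7% to 19.0% for Hsf4 and from 15.2% to 9.26% for Hsbp1. In the mice it went from 26.8% to 13.4%, 21.7% to 11.4%, 31.9% to 24.0% and 16.3% to 13.4% in the same order of genes. As deposited all pairs of members were positively correlated over libraries in both systems, with r from 0.30 to 0.86, and each had an r of 0.65 to 0.91 with the size factor. After scaling Hsf1 and Hsf4 stayed positive (r = 0.58 over 14 HT-22 and 0.64 over 17 mouse libraries), and Hsf1 and Hsf2 turned negative (r = -0.63 and -0.56). These values describe libraries that share their scaling and base composition.

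The known targets of Hsf1 were read as a list of 20 chaperone and related genes, 19 of which passed the level filter in HT-22 cells and 20 in the mice. Between LNAs with amyloid beta 1-42 16 of 19 were called lower as deposited (limma, 50.5% of all genes), with a list median of -0.73 beside -0.62 over all genes. Scaled, 0 of 19 were called and 0 had an unadjusted p under 0.05, and the median was -0.01. Averaged over peptides 14 of 19 were called lower as deposited (27.5% of all genes), but 0 without anti-Hsf1 replicate 1 with amyloid beta 1-42 or anti-Hsf1 replicate 3 with the reverse peptide, 1 without anti-Hsf1 replicate 3 and 7 and 9 without scramble replicates 3 and 4 with amyloid beta 1-42, and 9 and 6 without scramble replicate 3 and anti-Hsf1 replicate 2 with the reverse peptide. Scaled, it was 0 (1 at an unadjusted p under 0.05), with a median of -0.09. With anti-Hsf1 LNA 7 of 19 were called lower between peptides as deposited, beside 24.2% of all genes, 12 without amyloid beta 1-42 replicate 2, 5 without reverse-peptide replicate 3 and 0 without any of the other 4 libraries, and scaled 0 were. The summed level of the list was 3092 to 3906 scaled TPM with amyloid beta 1-42 and scramble and 3260 to 3445 with anti-Hsf1 LNA. With the reverse peptide the sums did not overlap, at 3355 to 4139 with scramble (3355 to 3483 without replicate 4) and 3213 to 3275 with anti-Hsf1 LNA. There 0 of 19 targets were called or had an unadjusted limma p under 0.05, as deposited or scaled. The scaled median there was -0.14 beside -0.002 over all genes, with 6 of 19 values above 0. With amyloid beta 1-42 Hsf1 was thus lower by 0.37 in the scaled data, not past adjustment, beside a target list with a median near 0.

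In the mice 17 of 20 targets were called higher in APP at 6 months as deposited, beside 57.6% of all genes, and 0 scaled (2 higher and 2 lower at an unadjusted p under 0.05). At 3 and 12 months 0 were called in either form. At 3 months 12 of 20 scaled values were above 0, with a median of 0.08 beside 0.01 over all genes, and 7 were higher and 0 lower at an unadjusted p under 0.05, which 2364 of 17840 genes reached in either direction. At 12 months 17 of 20 scaled values were above 0, with a median of 0.19 beside 0.00 over all genes, and 5 were higher and 0 lower at that p, which 1246 of 17840 genes reached. Marker sums that did not overlap at 3 months were astrocytes (7 genes) at 683 to 885 scaled TPM in APP and 934 to 951 in WT mice, blood (5) at 151 to 225 and 73.9 to 88.9, oligodendrocytes (8) at 1600 to 2702 and 1492 to 1564 and hippocampus (6) at 93.9 to 205 and 266 to 269. At 12 months they were microglia (8) at 282 to 343 and 134 to 160, astrocytes at 1311 to 1483 and 947 to 1010, oligodendrocytes at 1154 to 1290.5 and 1023 to 1052 and choroid plexus (7) at 1442 to 1667 and 423 to 1324. No marker of these was at 0 in a whole group, and their part in the targets' values was not tested. Hspa1a and Hspa1b are near-identical copies between which reads can be split, so they are uncertain one by one.

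Across age in APP mice 2 of 20 targets were called lower in the scaled data, and 1 of them as deposited. The scaled list median from 3 to 12 months was -0.29 in APP mice beside -0.003 over all genes, with 3 of 20 values above 0. At an unadjusted limma p under 0.05, 6 were lower and 1 higher, and 2937 of 17840 genes reached that p in either direction. In WT mice the median was -0.26 beside -0.01, with 3 of 20 values above 0. There 4 were lower and 0 higher at that p, which 1487 of 17840 genes reached. Dnajb1, an Hsp40 co-chaperone, was at 18.8 to 22.2 scaled TPM at 3 months, 13.3 to 14.1 at 6 months and 11.2 to 13.3 at 12 months. From 3 to 12 months it was lower by 0.73 scaled (limma adjusted p = 0.0016) and by 0.72 as deposited (0.018). Fkbp4, an immunophilin that works with Hsp90, was at 52.4 to 64.2 and then 39.3 to 42.7 scaled TPM, lower by 0.48 (limma adjusted p = 0.021). The share of all genes called lower was 1.49% scaled and 0.454% as deposited. Dnajb1 stayed called in the scaled data without any 1 of the 6 libraries. Its deposited call was lost without APP replicate 2 of 3 months or any 1 library of 12 months. The scaled Fkbp4 call was lost without any 1 library of 12 months. It was also lost without APP replicate 1 of 3 months, the library lowest in hippocampus markers. In WT mice scaled Dnajb1 was lower by 0.36 (limma adjusted p = 0.40), and Fkbp4 by 0.21 (0.65). When the change from 3 to 12 months was compared between genotypes, 0 of 20 targets were called, as deposited or scaled. The shares of all genes called there were 0.454% and 0.0729%. Dnajb1 was at 15.9 scaled TPM in both WT libraries of 3 months and at 11.2 to 13.5 at 12 months, and in the APP mice its fall came with scaled Hsf1 means of 13.1 and 12.4. Over the same ages the APP libraries' marker sums ranged over 683 to 885 at 3 months and 1311 to 1483 at 12 months for astrocytes (7 genes), 124 to 133 and 282 to 343 for microglia (8), 1600 to 2702 and 1154 to 1290.5 for oligodendrocytes (8), and 93.9 to 205 and 233 to 256 for hippocampus genes (6), and their part in these values was not tested.

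The regulators of Hsf1 were read as a list of 20 genes, kinases, acetylases, deacetylases, SUMO enzymes and co-chaperones among them. Of these 20 genes 19 were tested in each system. As deposited 15 of 19 were called lower between LNAs with amyloid beta 1-42, where 50.5% of all genes were (median -0.78 beside -0.62 over all genes). In APP at 6 months 13 of 19 were called higher, where 57.6% of all genes were (median 0.75 beside 0.60). Scaled, 0 of 19 were called in each of these by limma (0 and 4 at an unadjusted p under 0.05), and the medians were -0.09 and 0.05. No regulator was called after scaling in any of the 13 comparisons.

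The genes whose scaled levels were most like each member's are given as a description. In HT-22 cells, over 14 libraries and 11600 genes of mean TPM 5 or more, these were Tbcd, Nubp1 and Cuedc1 for Hsf1 (r = 0.87 each), Ncapg, Kat2b and A430033K04Rik for Hsf2 (r = 0.96, 0.95 and 0.95), Jund, Ssna1 and Flii for Hsf4 (r = 0.89, 0.87 and 0.86) and Wdr53, Gm13192 and Ccdc58 for Hsbp1 (r = 0.83, 0.83 and 0.82). In the mice, over 17 libraries and 11043 genes, they were Eif4g3, Ankrd13b and Nlgn2 for Hsf1 (r = 0.89, 0.84 and 0.82), Trim23, Sec23a and Trappc2 for Hsf2 (r = 0.87, 0.83 and 0.82), Foxo3 and Tmem178b for Hsf4 (r = 0.84 each) and Tubb2a, Lamtor5 and Gm10039 for Hsbp1 (r = 0.91, 0.86 and 0.86). No gene stood on the lists of both systems for the same member. Among close neighbours, Bop1 ends 144 bases before Hsf1 on the other strand, and its scaled level had an r of 0.61 with Hsf1 in HT-22 cells and 0.01 in the mice.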

How the data were processed

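The 31 long-RNA libraries were made after fragmentation and ribosomal RNA depletion, per the labels' protocols, and the kit named there does not mark strand. Per the submitters' processing notes, the tools included FastQC, cutadapt 1.18, HISAT2 2.1.0, BWA 0.7.17, bedtools 2.26.0 and StringTie 1.3.4d, with the build mm10 (GRCm38). The authors deposited TPM, FPKM and coverage (a mean signal per base) for each gene, per the file headers. These are not counts. Depth in reads is not given: the ratio of coverage to FPKM, which rises with depth, ran from 1.42 to 3.04 in the mice and from 0.724 to 2.60 in HT-22 cells.

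Rows that shared a gene identifier were summed. Differences were tested in R 4.3.3 with limma 3.58.1 (trend, robust) on log2(TPM + 1), which understates changes of low genes, over genes of mean TPM at least 1 (17840 in the mice, 17291 in HT-22 cells), in 1 fit for each system, with Benjamini-Hochberg adjustment over all genes tested and a threshold of 0.05. A gene is called if it passes. Each fit was repeated after median of ratios scaling. Errors are SE of a change or SD over libraries, and intervals are 95%. Pair ratios were tested in Python 3.11.15 with pandas 2.3.3 and numpy 2.4.6 by exact permutation, and were added after seeing the data, as were the coverage and GC alternatives and the fit without 3 scramble libraries. The scripts were tested on simulated data.

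The members and gene lists were chosen with earlier results of these data known. List genes are named if called both as deposited and scaled. Fkbp4, called on 1 scale, was chosen after its values were seen, as were Hspe1 and Hspa1a for their promoters. GC was the mean over a gene's GENCODE M21 transcripts. Of 53975 gene identifiers 53934 were in that annotation. Same-numbered replicates are not described as paired. Limma p-values set a difference against the spread between these libraries, estimated with information from all genes tested. Exact p-values give the share of label arrangements with a difference at least as large. The short-RNA libraries were not used here, and 1 gene among those most like a member is not reported here.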

Additional observations from a re-analysis of the deposited data

Results flagged for a closer look

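In 5 results the difference between LNAs or between genotypes changed from group to group by a test of the change itself, all of them on deposited TPM. The LNA difference was larger under amyloid beta 1-42 than under the reverse peptide for Hsf1 (-0.96, limma adjusted p = 0.024) and Hsf2 (-0.83, 0.026). The APP difference was larger at 6 than at 3 months for Hsf1 (1.17, limma adjusted p = 0.0068), Hsf2 (0.82, 0.02) and Hsbp1 (0.71, 0.031). This change with age cannot be told apart from the Y-linked transcripts present in the WT libraries of 6 but not of 3 months. None of the 5 was called after scaling. Without the 3 scramble libraries that deviated together the Hsf1 difference between peptides lost its call (-0.86, limma adjusted p = 0.056) and that of Hsf2 kept it (-0.94, 0.022). Both were lost without anti-Hsf1 replicate 1 or 3 with amyloid beta 1-42 or replicate 1 with the reverse peptide. Of the age differences, Hsf1 alone kept its call without any 1 library. Of all genes 25.3% were called lower in the first comparison, where the median was -0.68. In the second 44.2% were called higher, where the median was 0.74. No library stood apart from its group of 4 in any member. The groups of 2 or 3 libraries were not tested for this.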

How the results depend on the processing

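The 18 of 52 deposited calls of members all depended on the scale. All values are log2 changes, and the cause of each difference was not tested unless the setting itself gives it. After median of ratios scaling 0 of 52 were called. Values that kept their sign and lost their call were Hsf1 -0.37 (LNA with amyloid beta 1-42), Hsf1 -0.26 and Hsf4 -0.12 (LNA over both peptides), Hsf1 -0.025 and Hsf2 -0.11 (peptide with anti-Hsf1 LNA) and Hsf1 -0.22 and Hsf2 -0.091 (interaction). The same held for Hsf1 0.18 and Hsf4 0.32 (genotype at 6 months) and Hsf1 0.32 (genotype at 6 minus 3 months). Values that changed sign were Hsf2 0.17, Hsf4 0.033 and Hsbp1 0.18 (LNA with amyloid beta 1-42), Hsf2 0.21 and Hsbp1 0.031 (LNA over both peptides), Hsf2 -0.022 and Hsbp1 -0.14 (peptide with scramble LNA) and Hsf4 0.35 and Hsbp1 0.16 (peptide with anti-Hsf1 LNA). Others were Hsf4 0.31 and Hsbp1 0.29 (interaction), Hsf2 -0.12 and Hsbp1 -0.36 (genotype at 6 months), Hsf1 -0.0079, Hsf2 -0.062 and Hsf4 -0.067 (genotype at 12 months) and Hsf2 -0.051 and Hsbp1 -0.20 (genotype at 6 minus 3 months). Further ones were Hsf4 -0.25 (genotype at 12 minus 3 months) and Hsf4 0.16 (age in WT mice). Scaled coverage, added after seeing the data, called 0 of 52 as well. It weakened Hsf1 -0.40 (LNA with amyloid beta 1-42), Hsf1 -0.34 and Hsf4 -0.082 (LNA over both peptides), Hsf1 -0.0070 and Hsf2 -0.10 (peptide with anti-Hsf1 LNA) and Hsf1 -0.12 and Hsf2 -0.075 (interaction). It also weakened Hsf1 0.12 and Hsf4 0.33 (genotype at 6 months) and Hsf1 0.24 (genotype at 6 minus 3 months). It turned Hsf2 0.18, Hsf4 0.0094 and Hsbp1 0.20 (LNA with amyloid beta 1-42), Hsf2 0.22 and Hsbp1 0.052 (LNA over both peptides), Hsf2 -0.025 and Hsbp1 -0.17 (peptide with scramble LNA) and Hsf4 0.33 and Hsbp1 0.12 (peptide with anti-Hsf1 LNA). It also turned Hsf4 0.18 and Hsbp1 0.29 (interaction), Hsf2 -0.078 and Hsbp1 -0.36 (genotype at 6 months), Hsf4 -0.061 (genotype at 12 months) and Hsf2 -0.051 and Hsbp1 -0.21 (genotype at 6 minus 3 months). The last were Hsf4 -0.26 (genotype at 12 minus 3 months) and Hsf4 0.17 (age in WT mice). A pseudocount of 0.1 kept the number of member calls at 18. Without the filter on low TPM 15 were called, and 3 lost their call with values as before: Hsf4 -0.43 (LNA over both peptides), Hsf1 -0.61 (peptide with anti-Hsf1 LNA) and Hsbp1 0.71 (genotype at 6 minus 3 months). Leaving out the 3 scramble libraries, also added, weakened Hsf4 -0.44 (LNA with amyloid beta 1-42), Hsf1 -0.51, Hsf4 -0.37 and Hsbp1 -0.32 (LNA over both peptides) and Hsf1 -0.86 (interaction). It turned deposited Hsf4 -0.041 (peptide with scramble LNA), and scaled Hsf2 -0.016 (LNA with amyloid beta 1-42) and Hsf2 0.077 and Hsf4 -0.20 (peptide with scramble LNA). The GC correction of scaled values, added too, turned Hsf2 0.054 (peptide with scramble LNA), Hsf2 0.086 (peptide with anti-Hsf1 LNA), Hsf2 0.032 (interaction) and Hsf2 0.086 (genotype at 6 minus 3 months).

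The labels do not say that equal replicate numbers mark a shared animal, culture or batch. The deviations of same-numbered libraries had a mean r of 0.042 over 19 HT-22 pairs (-0.22 to 0.57) and of 0.0003 over 40 mouse pairs (-0.15 to 0.23). With the replicate number as a block 15 members were called as deposited and 0 scaled. The block left Hsf1 -0.55, Hsf4 -0.44 and Hsbp1 -0.31 (LNA over both peptides) and Hsf1 -0.61 (peptide with anti-Hsf1 LNA) without a call, gave Hsf4 0.90 (genotype at 6 minus 3 months) a call and turned Hsf4 -0.050 (genotype at 3 months).

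Ranges over leaving out 1 library at a time, for results whose call or sign moved, were as follows. As deposited, Hsf2 -0.70 to -0.42 and Hsf4 -0.76 to -0.53 (LNA with amyloid beta 1-42), Hsf1 -0.69 to -0.53, Hsf4 -0.50 to -0.38 and Hsbp1 -0.37 to -0.25 (LNA over both peptides), Hsbp1 -0.021 to 0.058 (peptide with scramble LNA) and Hsf1 -0.80 to -0.47, Hsf2 -0.86 to -0.58 and Hsbp1 -0.56 to -0.32 (peptide with anti-Hsf1 LNA). Further deposited ranges were Hsf1 -1.15 to -0.83, Hsf2 -0.995 to -0.72 and Hsbp1 -0.58 to -0.34 (interaction), Hsf4 -0.20 to 0.19 (genotype at 3 months), Hsf2 0.40 to 0.70 and Hsbp1 0.23 to 0.53 (genotype at 6 months) and Hsf1 -0.030 to 0.35 and Hsf4 -0.17 to 0.28 (genotype at 12 months). The last were Hsf2 0.66 to 0.97, Hsf4 0.66 to 1.05 and Hsbp1 0.55 to 0.88 (genotype at 6 minus 3 months), Hsf4 -0.19 to 0.26 (genotype at 12 minus 3 months), Hsf1 -0.73 to -0.35 and Hsf4 -0.33 to 0.12 (age in WT mice) and Hsf1 -0.14 to 0.088, Hsf2 -0.17 to 0.018 and Hsf4 -0.20 to 0.15 (age in APP mice). Scaled, sign changes gave Hsf4 -0.13 to 0.10 (LNA with amyloid beta 1-42), Hsbp1 -0.013 to 0.062 (LNA over both peptides), Hsf2 -0.10 to 0.054 and Hsf4 -0.065 to 0.20 (peptide with scramble LNA) and Hsf1 -0.10 to 0.040 (peptide with anti-Hsf1 LNA). Further scaled ranges were Hsf2 -0.16 to 0.044, Hsf4 -0.039 to 0.33 and Hsbp1 -0.26 to 0.011 (genotype at 3 months), Hsf1 -0.081 to 0.10, Hsf2 -0.15 to 0.024 and Hsf4 -0.24 to 0.070 (genotype at 12 months), Hsf2 -0.16 to 0.042 and Hsf4 -0.014 to 0.36 (genotype at 6 minus 3 months) and Hsf2 -0.11 to 0.099 (genotype at 12 minus 3 months). The last were Hsf2 -0.17 to 0.012 and Hsbp1 -0.14 to 0.0043 (age in WT mice) and Hsf1 -0.18 to 0.068, Hsf4 -0.23 to 0.14 and Hsbp1 -0.0064 to 0.27 (age in APP mice).

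Counts of called genes moved too. As deposited, scaled and by coverage they were 8766, 4 and 0 for the LNA with amyloid beta 1-42, 4776, 0 and 0 over both peptides, 4197, 0 and 0 for the peptide with anti-Hsf1 LNA and 4379, 0 and 0 for the interaction. They were 10339, 255 and 432 for genotype at 6 months, 7932, 273 and 469 for its difference from 3 months, 81, 13 and 14 for 12 minus 3 months, and 286, 596 and 795 for age in APP mice. For age in WT mice they were 21 as deposited and 11 scaled. The block gave 0 over both peptides, 1 in place of 0 for the peptide with scramble LNA, 484 in place of 71 for genotype at 3 months, 410 for 12 minus 3 months and 932 for age in WT mice. Without the 3 scramble libraries 1014 genes were called over both peptides, 7270 for the peptide with anti-Hsf1 LNA and 4 with scramble LNA. Without the filter 32 genes were called for genotype at 3 months, 32 for 12 minus 3 months and 2 for the LNA with reverse peptide. Leaving out 1 library gave 0 to 6306 over both peptides, 0 to 6352 and 520 to 6195 for the peptide with anti-Hsf1 LNA and the interaction, 6 to 1420 for age in WT mice, 91 to 385 for age in APP mice, 2 to 205 for genotype at 3 months, 56 to 141 at 12 months, 4268 to 8693 for 6 minus 3 months, 10 to 258 for 12 minus 3 months and 0 to 1 for the peptide with scramble LNA. Leaving out WT replicate 2 of 3 months gave the lowest count in each mouse comparison that uses it, and leaving out WT replicate 3 of 12 months the highest. The files give no counts, so how far depth limits these values is not known.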
